A study of Mus musculus with 2 samples.

Results

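Mitosis and spindle genes, 45 genes that encode the cyclins, kinases, kinetochore proteins, motors and chromosome proteins of cell division, were followed through the transcriptome of perivascular cells (PCs) of the mouse aorta. The genes were listed by name with earlier results of these data known, and all 45 were found among the 20211 gene symbols measured. RNA was sequenced from cultured primary PCs of C57BL/6 background, with 1 library from wild type (WT) cells and 1 library from Kai1-/- cells, which lack the tetraspanin KAI1 that the gene Cd82 encodes. The labels name no other treatment for either group. The study describes its purchased mice as adult and of either sex, and which and how many animals gave each library was not given in the sources used here. The comparison asks how the loss of KAI1 changes the mRNA of PCs. The labels give medium with 10% serum for both groups, which differs from the serum in the culture methods of the study.

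Mitosis is driven by cyclin-dependent kinase 1 (CDK1) bound to cyclin A or cyclin B. Polo-like and Aurora kinases then build the spindle, kinetochores attach chromosomes to its microtubules, and a checkpoint holds back the anaphase-promoting complex (APC/C), a ubiquitin ligase, until every chromosome is attached. Most of these genes are transcribed only in late S, G2 and M phase. In quiescent and G1 cells they are shut by the DREAM complex, and in dividing cells they are driven by B-MYB and FOXM1 bound to the MuvB core. In bulk RNA the level of such genes therefore follows the share of cells in G2 and M phase as well as the amount of mRNA per cell, and these cannot be told apart here.

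The MuvB core contacts promoters at the cell cycle genes homology region (CHR), and the factor NF-Y binds CCAAT boxes a few helical turns away. The promoters of the 4 genes with the largest increase among those that hold both motifs are printed here to show this arrangement. They are RefSeq windows on the build GRCm38.p6, from 250 bases before to 50 bases after the transcription start, and are written 5′ to 3′ on the strand of the gene. Capitals mark CHR elements (TTTGAA or TTTAAA, on either strand) and CCAAT boxes (CCAAT, on either strand).
Ttk, chr9:83834439-83834738, plus strand: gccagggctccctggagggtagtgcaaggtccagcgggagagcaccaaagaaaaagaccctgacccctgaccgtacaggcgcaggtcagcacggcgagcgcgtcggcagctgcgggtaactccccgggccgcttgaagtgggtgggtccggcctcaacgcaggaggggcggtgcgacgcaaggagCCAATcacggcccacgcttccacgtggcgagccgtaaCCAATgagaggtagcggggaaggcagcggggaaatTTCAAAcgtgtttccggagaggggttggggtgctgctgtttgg
Ccnb2, chr9:70421505-70421804, minus strand: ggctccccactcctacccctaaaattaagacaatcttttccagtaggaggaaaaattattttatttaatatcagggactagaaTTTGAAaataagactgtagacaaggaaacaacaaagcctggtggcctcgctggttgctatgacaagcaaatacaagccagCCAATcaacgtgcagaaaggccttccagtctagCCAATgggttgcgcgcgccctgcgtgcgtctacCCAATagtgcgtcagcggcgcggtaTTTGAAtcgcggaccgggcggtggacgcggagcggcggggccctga
Ccnb1, chr13:100786437-100786736, minus strand: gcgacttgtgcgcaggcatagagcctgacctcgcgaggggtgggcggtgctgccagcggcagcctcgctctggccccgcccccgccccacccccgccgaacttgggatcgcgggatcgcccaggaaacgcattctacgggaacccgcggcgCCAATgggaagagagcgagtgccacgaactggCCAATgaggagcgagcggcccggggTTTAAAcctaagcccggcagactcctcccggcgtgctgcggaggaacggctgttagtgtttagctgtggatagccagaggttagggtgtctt
Cdk1, chr10:69352863-69353162, minus strand: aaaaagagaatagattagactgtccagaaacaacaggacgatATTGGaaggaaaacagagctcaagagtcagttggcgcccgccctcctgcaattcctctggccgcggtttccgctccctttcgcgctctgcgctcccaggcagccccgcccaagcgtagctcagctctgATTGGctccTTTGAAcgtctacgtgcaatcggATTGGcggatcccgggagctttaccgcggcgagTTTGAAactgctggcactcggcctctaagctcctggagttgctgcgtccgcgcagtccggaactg
In Ccnb2, 3 CCAAT boxes followed each other at a spacing of 33 bases, with a CHR element downstream of the last. The CCAAT boxes of Ccnb1 lay 32 bases apart and those of Ttk 37 bases apart, and the pair of Cdk1 boxes nearest to the start lay 32 bases apart.

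Expression was deposited in RPKM, reads per kilobase of transcript scaled to the mapped reads of a library. The log2 ratio used below is that of Kai1-/- to WT after 0.1 RPKM was added to both values, and 10068 genes with a mean of at least 1 RPKM over both libraries were kept for comparison. All 45 mitosis and spindle genes passed this filter, and Ttk was the only one below 1 RPKM in the WT library. Low values were spaced as whole reads would be, which corresponded to about 29400000 reads for WT and 26600000 for Kai1-/-, and reads per gene estimated from these steps gave each ratio a 95% counting interval. The intervals cover counting error only and rest on the longest annotated transcript. There were no replicates, so no difference below has a check against the spread between cultures or animals.

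Some features of the libraries bear on every value. Cd82 itself was read at 12.8 RPKM in WT and at 2.62 RPKM in Kai1-/- cells (log2 ratio -2.25), so the targeted gene was lower but still read. The mural markers were led by Acta2, at 3823 RPKM in WT and 2580 in Kai1-/-, and 9 of 10 mural markers were lower in the Kai1-/- library, with a summed level of 4646 RPKM in WT and 2977 in Kai1-/-. The mural markers Rgs5 and Des were near 0 or low in both, with Rgs5 at 0.0630 and 0.233 RPKM and Des at 1.23 and 0.25. The 5 fibroblast markers of 6 that were lower summed, with the sixth, to 2085 and 1300 RPKM. All 6 endothelial markers were below 0.5 RPKM in WT and listed at 0 in Kai1-/-. Of 6 macrophage markers, Emr1 and Aif1 were listed at 0 in both libraries, and the summed level of 13.0 RPKM in WT and 3.13 in Kai1-/- came mostly from Csf1r. The 6 epithelial markers summed to 0.712 and 1.03 RPKM, and the 6 lymphocyte markers to 0.118 and 0.299 RPKM. The Y-linked gene Ddx3y had 6.56 RPKM in WT and was listed at 0 in Kai1-/-, so the sex of the cells and the genotype cannot be told apart. Ribosomal protein genes took 37.7% of the RPKM sum in WT and 49.1% in Kai1-/-. The sum itself, over all rows, was 885190 RPKM in WT and 1238890 in Kai1-/-, and no alternative below scaled the libraries to equal sums over all genes. The part of these differences in the results on mitosis genes was not tested.

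In the values as deposited, every one of the 45 mitosis and spindle genes had a higher RPKM in the Kai1-/- library than in the WT library, and all but Kif23 and Smc4 did when scaled to Gapdh. The increase exceeded 2-fold for 31 genes, or 68.9%, while 7.98% of all genes kept were more than 2-fold higher. None of the 45 was more than 2-fold lower, against 7.81% of all genes kept, and 55.1% of all genes kept were higher by any amount. The median log2 ratio of the mitosis genes was 1.25, with quartiles of 0.85 and 1.46, beside a median of 0.08 and quartiles of -0.35 and 0.50 over all genes kept. Their summed level went from 680 RPKM in WT to 1715 in Kai1-/-, a ratio of 2.52. Scaled to Gapdh, which itself had a log2 ratio of 0.50 and brought the median over the genes kept down to -0.41, 43 of the 45 genes were higher, with Kif23 and Smc4 lower, and 11 were more than 2-fold higher, while 2.76% of all genes kept were more than 2-fold higher and 18.4% were more than 2-fold lower.

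**Figure D1:**
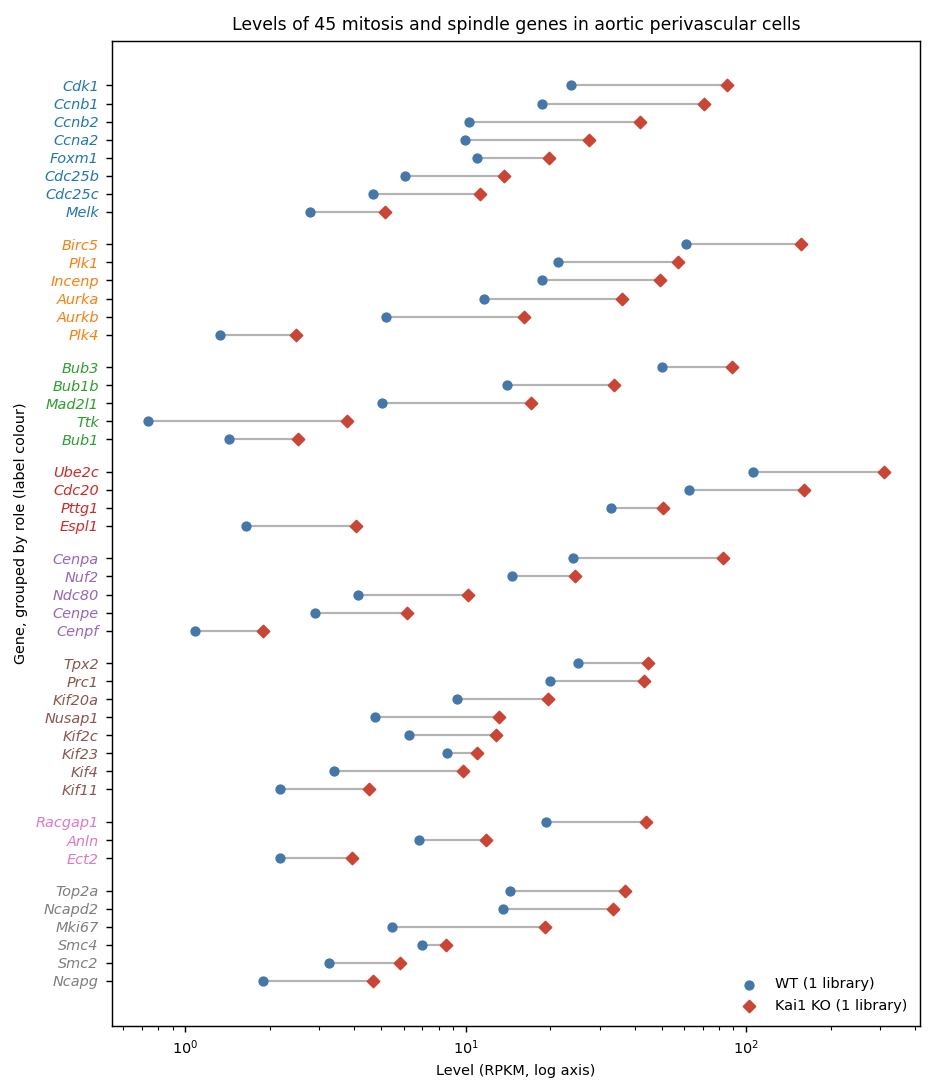
Level of each mitosis and spindle gene in RPKM on a log axis, with a circle for the WT library, a diamond for the Kai1-/- library and genes grouped by role. In the values as deposited, the diamond lies to the right of the circle for all 45 genes (for all but Kif23 and Smc4 when scaled to Gapdh), from 0.737 against 3.76 RPKM for Ttk to 106 against 309 RPKM for Ube2c.

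The order of levels within the set was nearly the same in both libraries. Ube2c was highest and Cdc20, Birc5 and Bub3 were also among the 5 highest genes in each, and 9 genes were among the 10 lowest in both. Over the 45 genes, the Spearman correlation of the 2 libraries' RPKM values was 0.97, a description across genes that share the same libraries. The 15 members lowest in WT had a median log2 ratio of 1.07, the middle 15 one of 1.27 and the highest 15 one of 1.36. Other genes within the ranges of mean RPKM over both libraries that these members spanned had medians of 0.01, 0.08 and 0.17.

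**Figure D2:**
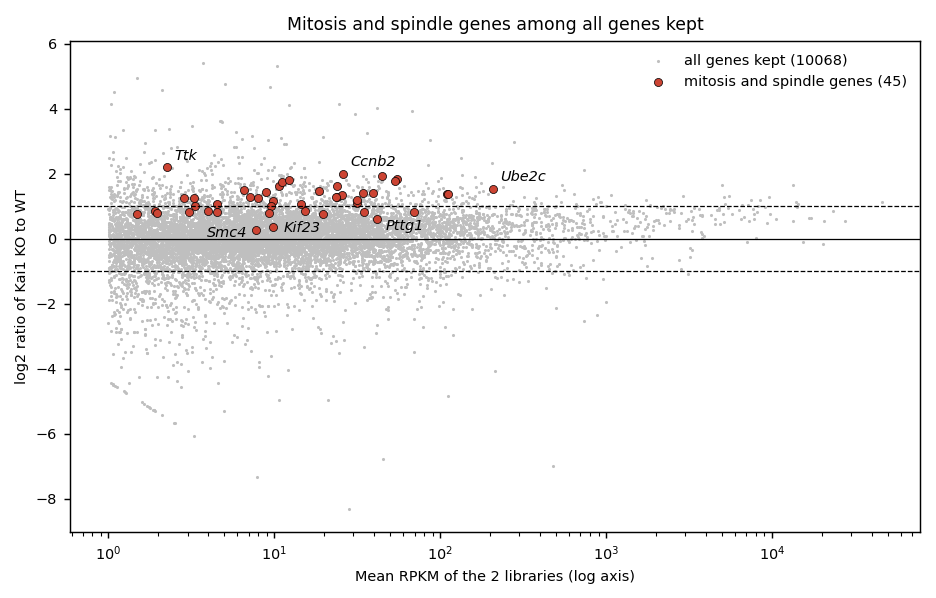
Log2 ratio of Kai1-/- to WT against the mean RPKM of both libraries (log axis), with all 10068 genes kept in grey and the 45 mitosis and spindle genes in red. In the values as deposited, the red points all lie above 0 (all but Kif23 and Smc4 when scaled to Gapdh), between 0.28 for Smc4 and 2.20 for Ttk.

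The engine of mitotic entry showed some of the largest ratios. Cdk1, the mitotic kinase, was measured at 23.7 RPKM in WT and 85.5 in Kai1-/-, a log2 ratio of 1.85 with a counting interval from 1.77 to 1.92. Its gene lies on chromosome 10 from 68799383 to 68815686 on the build NCBI37. Ccnb1, which encodes cyclin B1, had 18.7 RPKM in WT and 70.8 in Kai1-/-, a log2 ratio of 1.92. Ccnb2, for cyclin B2, had 10.3 and 41.6 RPKM, a log2 ratio of 2.01 and one of only 2 increases above 4-fold in the set. The ratios of both B-type cyclins differed by 0.09, with a counting interval from -0.09 to 0.27 that holds 0. Ccna2, for cyclin A2, which acts from S phase to early mitosis, was at 9.92 RPKM in WT and 27.5 in Kai1-/-, a log2 ratio of 1.46. Cyclin A2 and both cyclin B mRNAs thus stood 2.77 to 4.04 times as high in the Kai1-/- library.

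The phosphatases that activate CDK1 differed less between the libraries. Cdc25b, the form that starts CDK1 activation at the centrosome, had 6.07 RPKM in WT and 13.7 in Kai1-/-, a log2 ratio of 1.16. Cdc25c had 4.66 and 11.2 RPKM, a log2 ratio of 1.25. Both intervals started just above 2-fold. Foxm1, the forkhead factor that drives G2 and M phase transcription, was at 11.0 and 19.8 RPKM, a log2 ratio of 0.85 with an interval from 0.75 to 0.94. Melk, a kinase gene transcribed with the mitotic program, was at 2.77 and 5.14 RPKM, a log2 ratio of 0.87. The factor Foxm1 was therefore less than 2-fold higher, below the cyclins and Cdk1.

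Polo and Aurora kinases were higher in the Kai1-/- library, with Plk4 below the others. Plk1, which acts on centrosomes, kinetochores and the cleavage site, had 21.3 RPKM in WT and 57.0 in Kai1-/-, a log2 ratio of 1.42. Plk4, which starts the duplication of centrioles, had only 1.32 and 2.49 RPKM, a log2 ratio of 0.86 with an interval from 0.55 to 1.18. Aurka, the Aurora kinase of centrosomes and spindle poles, was measured at 11.6 RPKM in WT and 35.9 in Kai1-/-, and Aurkb, that of centromeres and the midzone, at 5.17 and 16.2. The log2 ratios of the Aurora kinases were 1.62 for Aurka and 1.63 for Aurkb. Tpx2, which activates Aurora A on spindle microtubules, had 25.2 and 44.5 RPKM, and its log2 ratio of 0.82 was 0.80 below that of Aurka, with a counting interval of the difference from 0.65 to 0.95.

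The chromosomal passenger complex joins Aurora B to INCENP, survivin and borealin. Birc5, for survivin, was at 61.1 RPKM in WT and 157 in Kai1-/-, a log2 ratio of 1.36. Incenp, for the scaffold, was at 18.7 and 49.4 RPKM, a log2 ratio of 1.39. Cdca8, which encodes borealin and is not one of the 45 genes, was at 38.5 and 78.1 RPKM, a log2 ratio of 1.02. All 4 subunit mRNAs were higher by more than 2-fold, although the counting interval of Cdca8, plus or minus 0.06, holds 1. The log2 ratio of Cdca8 was 0.61 below that of Aurkb.

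The spindle checkpoint held the largest ratio of the set and also 2 genes below 2-fold. Ttk, which encodes the kinase MPS1 that recruits the checkpoint to unattached kinetochores, had 0.737 RPKM in WT and 3.76 in Kai1-/-. Its log2 ratio of 2.20 was the highest of the 45, but it rested on about 59 and 271 reads, with a counting interval from 1.80 to 2.61, and was 1.45 with 1 RPKM added in place of 0.1. Mad2l1, for MAD2, which inhibits the APC/C activator CDC20, had 5.03 and 17.1 RPKM, a log2 ratio of 1.74. Bub1b, for BUBR1, a part of the same inhibitor, had 14.0 and 33.9 RPKM, a log2 ratio of 1.27. Bub1, a checkpoint kinase of the kinetochore, had 1.43 and 2.52 RPKM, and Bub3, the binding partner of BUB1 and BUBR1, had 49.9 and 88.6. Neither Bub1 (0.78) nor Bub3 (0.83) passed 2-fold on the log2 scale.

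Among the partners of the APC/C and its anaphase targets, Ube2c, Cdc20 and Pttg1 were abundant and Espl1 was not. Ube2c, the E2 enzyme that starts ubiquitin chains on mitotic cyclins, was highest of all, with 106 RPKM in WT and 309 in Kai1-/-, a log2 ratio of 1.54. Cdc20, the activator that turns the APC/C on in anaphase, was at 62.4 and 161 RPKM, a log2 ratio of 1.37. Espl1, for separase, the protease that cuts cohesin, was at 1.65 and 4.04 RPKM, a log2 ratio of 1.24. Pttg1, for securin, which holds separase inactive, was at 32.9 and 50.3 RPKM. The log2 ratio of Pttg1 was 0.61 with an interval from 0.51 to 0.71, the third lowest of the set, so that securin mRNA differed less between the libraries than that of separase.

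Centromere and kinetochore genes spread widely. Cenpa, the histone H3 variant that marks centromeres, had 24.0 RPKM in WT and 82.6 in Kai1-/-, a log2 ratio of 1.78. Cenpe, the kinesin that moves chromosomes to the spindle equator, had 2.90 and 6.18 RPKM, a log2 ratio of 1.07, and Cenpf, a large protein of the outer kinetochore, had 1.08 and 1.89 RPKM, a log2 ratio of 0.75. Ndc80 and Nuf2 encode paired subunits of the NDC80 complex, the microtubule coupler of the kinetochore. Ndc80 was at 4.13 RPKM in WT and 10.2 in Kai1-/-, and Nuf2 at 14.6 and 24.6. The log2 ratio of Ndc80, 1.28, exceeded that of Nuf2, 0.75, by 0.53, with a counting interval of the difference from 0.29 to 0.78.

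Kinesins and spindle proteins lay around the 2-fold line. Kif11, the motor that pushes spindle poles apart, had 2.18 RPKM in WT and 4.51 in Kai1-/-, and Kif2c, which takes apart microtubule ends at centromeres, had 6.27 and 12.8. Both had a log2 ratio of 1.02 and intervals that hold 1. Kif4, the chromokinesin that also shortens the central spindle, had 3.37 and 9.75 RPKM, the largest log2 ratio of the kinesins at 1.504. Kif20a, a motor of the central spindle, had 9.28 and 19.6 RPKM, a log2 ratio of 1.07. Prc1, which bundles antiparallel microtubules there, had 19.9 and 43.0 RPKM, a log2 ratio of 1.11, and Nusap1, a microtubule binding protein near chromosomes, had 4.75 and 13.2, a log2 ratio of 1.45. Kif23, for the motor MKLP1 of the central spindle, had 8.53 RPKM in WT and 10.98 in Kai1-/-, a log2 ratio of 0.36 with an interval from 0.22 to 0.50. It was the second lowest of the set and close to most genes of the transcriptome, with 67.5% of all genes kept below it.

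Of the 3 cytokinesis genes, 1 was more than 2-fold higher. Racgap1, whose protein forms centralspindlin with MKLP1, had 19.4 RPKM in WT and 44.0 in Kai1-/-, a log2 ratio of 1.18. Its ratio exceeded that of its partner Kif23 by 0.82, with a counting interval from 0.67 to 0.97. Ect2, the exchange factor that centralspindlin brings to the midzone to activate RhoA, was at 2.17 and 3.94 RPKM, and Anln, the scaffold of the contractile ring, was at 6.81 and 11.8. The log2 ratios were 0.83 for Ect2 and 0.79 for Anln.

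The chromosome proteins divided along the subunits of condensin, the ring that compacts mitotic chromosomes. Smc2 and Smc4 form the core ATPase of both condensin I and II, and NCAPG and NCAPD2 belong to condensin I. Ncapg had 1.89 RPKM in WT and 4.67 in Kai1-/-, and Ncapd2 had 13.6 and 33.4. Smc2 had 3.26 and 5.81 RPKM, and Smc4 had 6.96 and 8.47. The condensin I subunits had log2 ratios of 1.26 (Ncapg) and 1.29 (Ncapd2), against 0.82 for Smc2 and 0.28 for Smc4, the lowest of the set. The difference between Ncapd2 and Smc4 was 1.01, with a counting interval from 0.85 to 1.17. Top2a, the topoisomerase that untangles sister chromatids, had 14.3 and 36.97 RPKM, a log2 ratio of 1.36. Mki67, for the proliferation marker Ki-67 that coats mitotic chromosomes, had 5.43 and 19.1 RPKM, a log2 ratio of 1.80.

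**Figure D3:**
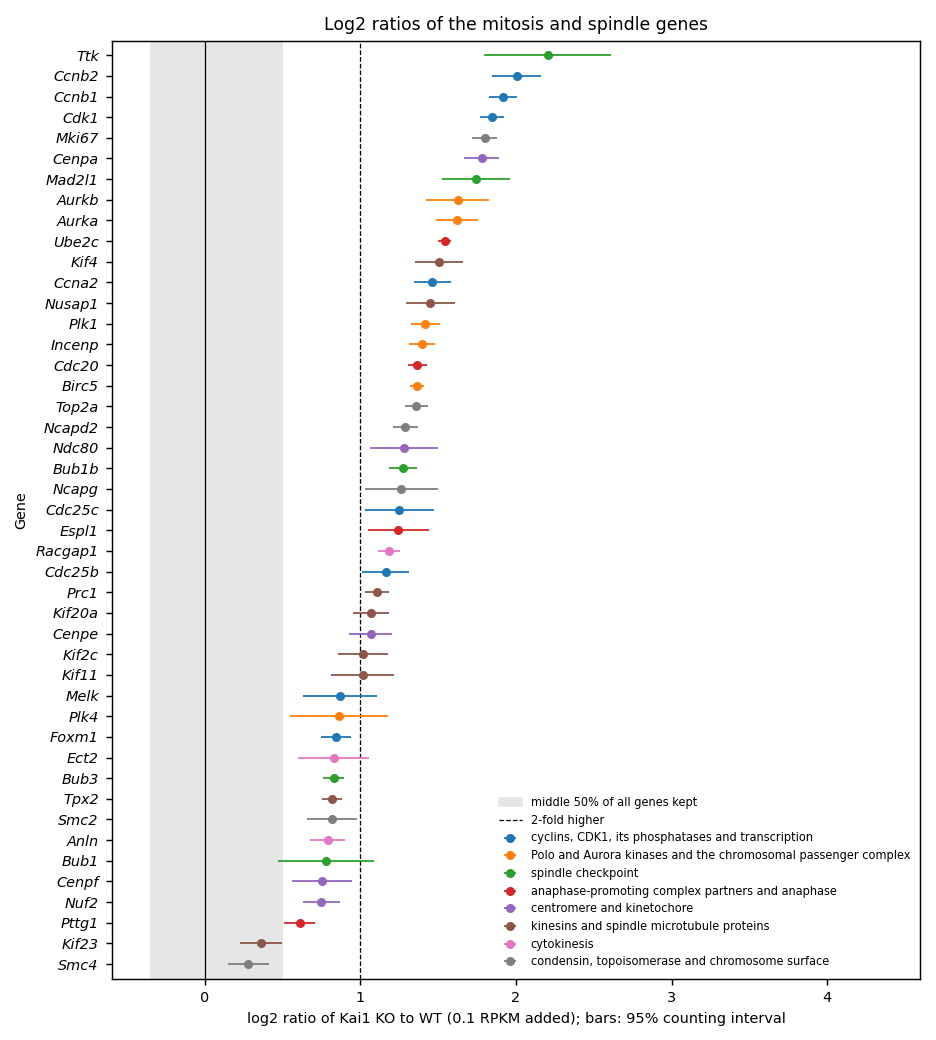
Log2 ratio of Kai1-/- to WT for each mitosis and spindle gene, coloured by role, with bars for the 95% counting interval, a grey band for the middle 50% of all genes kept and a dashed line at 2-fold. Of the 45 intervals, 27 lie wholly above the dashed line, 10 wholly below it and 8 across it, and Kif23 and Smc4 are the genes inside the grey band.

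By role, the median log2 ratio was 1.41 for the Polo and Aurora kinases with the passenger complex, 1.36 for cyclins and CDK1 regulators, 1.31 for APC/C partners, 1.28 for chromosome proteins and 1.27 for the checkpoint. It was 1.07 for centromere and kinetochore genes, 1.04 for kinesins and spindle proteins and 0.83 for cytokinesis, and each role held genes on either side of the 2-fold line. Without rescaling, the counting interval lay above 0 for all 45 genes. The ratio was above the upper quartile of all genes kept for 43 genes and within the top 5% for 24. Of the 45, 2 were among the 100 largest ratios of the 10068 genes kept.

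Reads of other genes and the length of transcripts were examined beside these ratios. On the NCBI37 annotation, exons of 10 members overlapped exons of another gene, on the opposite strand for Ccna2, Cdc25b, Cdc20, Ube2c, Kif4, Kif20a, Nusap1 and Ncapg and on the same strand for Foxm1 and Top2a, and whether counting used strand was not given in the sources used here. Without these 10, 22 of 35 genes were more than 2-fold higher and the median log2 ratio was 1.18. Short transcripts had higher ratios in general. Among other genes kept, those of up to 2283 bases had a median log2 ratio of 0.20 and those of over 3853 bases one of -0.02. Mitosis genes in the same length classes had medians of 1.48 and 1.04, with 1.16 between, so that they lay above other genes of like length in each class.

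Other genes of the cell cycle were read from 10 lists of 166 genes in all, none of them among the 45. Of 156 that passed the filter, 64 were higher in Kai1-/- cells by more than 2-fold and 1 was lower by as much. Among all genes kept, 7.98% were more than 2-fold higher and 7.81% lower by as much. The kinetochore list gave 16 of 32 genes more than 2-fold higher, 0 lower by as much and a median log2 ratio of 1.01. It was led by Mis18a, which licenses centromeres for new CENP-A, at 0.830 RPKM in WT and 5.04 in Kai1-/-, a log2 ratio of 2.47. Then came Cenpw (2.12) and Spc24 (1.71), with Cenpt lowest at -0.12. Mis18a had no read estimate and so no counting interval. Cenpw rested on about 58 reads in WT and 239 in Kai1-/-, with an interval of plus or minus 0.42. The log2 ratio of Spc24, a subunit of the NDC80 complex, exceeded that of its partner Nuf2 by 0.96, with a counting interval from 0.80 to 1.13. Hjurp, the chaperone that deposits CENP-A, had a log2 ratio of 1.08, or 0.70 below that of Cenpa. These partners, like the other pairs of one complex above, were chosen after their values were seen.

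Lists of mitotic machines differed in their medians. Their counts stand beside 7.98% of all genes kept more than 2-fold higher and 7.81% lower by as much. Of 21 other spindle, motor and cytokinesis genes, 15 were more than 2-fold higher, with a median of 1.38, led by Cdca3 (1.88), Dlgap5 (1.78) and Kif18a (1.77), while Kif3a, a motor of cilia and transport, was lowest at -0.97. The list of APC/C genes had a median of 0.32, with 3 of 16 genes more than 2-fold higher and 0 lower by as much. Those 3 were Fbxo5 (1.55), for the inhibitor EMI1, the E2 enzyme gene Ube2s (1.09) and the activator gene Fzr1 (1.01), none of which is a core subunit, and the core subunit gene Cdc27 was at -0.11. In the list of other condensin and cohesin genes, 3 of 14 were more than 2-fold higher and 0 lower by as much, with a median of 0.50. They were Cdca5 (1.55), for sororin, and the condensin genes Ncaph (1.27) and Ncapg2 (1.10), and the cohesin loader gene Nipbl was lowest at -0.11. Of 9 centriole and centrosome genes, 4 were more than 2-fold higher and 0 lower by as much, with a median of 0.96. Their ratios ran from Cep152 (1.68), Pcnt (1.55) and Nedd1 (1.14) down to Sass6 (-0.28). The counting intervals of Fzr1, Ncapg2 and Nedd1, plus or minus 0.06, 0.24 and 0.25, hold 1.

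Regulators around mitosis were mixed, and their counts stand beside the same shares of all genes kept, 7.98% higher and 7.81% lower. Of 16 kinases and phosphatases of mitotic entry, 3 were more than 2-fold higher and 0 lower by as much, with a median of 0.63. These were Pbk (2.002), Cks2 (1.81), a small CDK1 partner, and Pkmyt1 (1.19), which inhibits CDK1, and Ensa was lowest at -0.38. The counting interval of Pkmyt1, plus or minus 0.23, holds 1. Among 12 genes of the DREAM and MuvB complexes the median was 0.68, with 3 more than 2-fold higher and 0 lower by as much. Lin9, a MuvB core subunit, was at 0.462 and 1.83 RPKM with a log2 ratio of 1.78, Mybl2, for B-MYB, was at 6.28 and 19.9 RPKM with one of 1.65, and Lin52 had one of 1.28. Few reads lay behind Lin9, about 37 in WT and 134 in Kai1-/-, and behind Lin52, about 34 and 82. Their counting intervals were plus or minus 0.52 for Lin9 and 0.58 for Lin52, and that of Lin52 holds 1. Lin37 was lowest at -0.44. Of the DNA replication genes, 13 of 20 were more than 2-fold higher, 0 were lower by as much and the median was 1.19. They were led by Rfc4 (2.12), Cdc45 (1.94) and Gins1 (1.87), while Rrm2 was at -0.23.

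Genes of the G1 phase lay on both sides of 0, and their counts again stand beside 7.98% of all genes kept higher and 7.81% lower. Of 10 G1 cyclins and kinases, 2 were more than 2-fold higher and 1 was lower by as much, with a median of 0.19. Ccne2 (1.501) and Cdk2 (1.37) were highest, followed by Cdk4 (0.95), and Ccnd2, for cyclin D2, was at 188 RPKM in WT and 83.1 in Kai1-/-, a log2 ratio of -1.17. Of 6 CDK inhibitors, 2 were more than 2-fold higher and 0 lower by as much. Their median was -0.07, or -0.71 when Cdkn1c, which is below the filter, is counted. Cdkn2d (1.69, a mean over repeated rows), Cdkn1b (1.11) and Cdkn2c (0.57) were higher. The counting interval of Cdkn1b, plus or minus 0.14, holds 1. Cdkn2b (-0.96) and Cdkn2a (-0.71), named after their values were seen, were lower, and Cdkn1a, for p21, the most abundant at 650 RPKM in WT, was at 327 in Kai1-/-, a log2 ratio of -0.99.

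**Figure D4:**
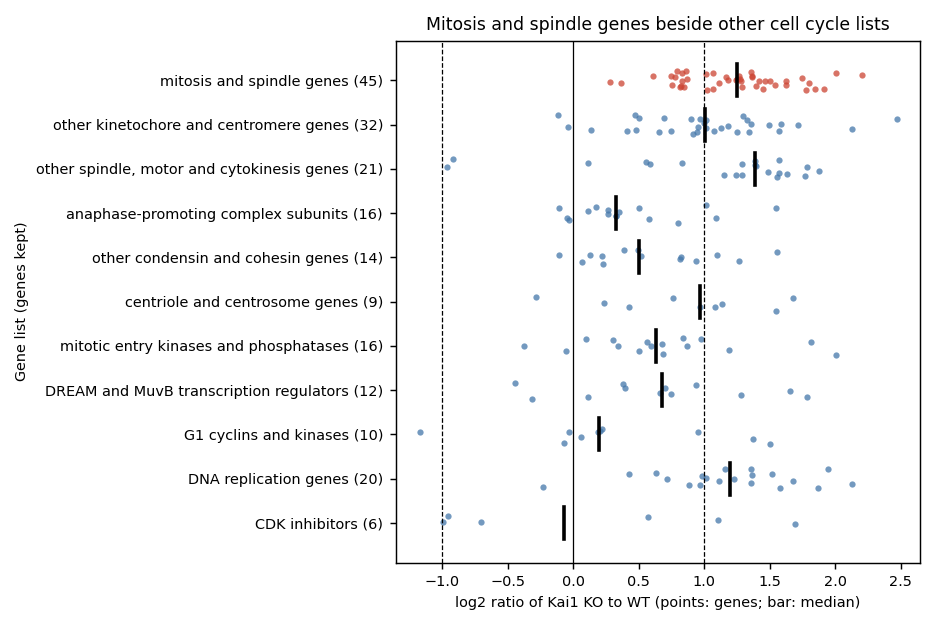
Log2 ratio of Kai1-/- to WT for the 45 mitosis and spindle genes (red) and the genes kept of 10 other cell cycle lists (blue), with a black bar at each median and the number of genes in brackets. The medians of 1.38 for other spindle, motor and cytokinesis genes, 1.25 for the mitosis genes and 1.19 for DNA replication lie furthest to the right, and those of G1 genes (0.19) and CDK inhibitors (-0.07) lie near 0.

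The promoter motifs of the printed sequences were then counted across the set. RefSeq windows were found by symbol for 37 of the 45 genes and for 7607 of the 10023 other genes kept. Ccna2, Cdc25c, Foxm1, Aurkb, Incenp, Kif20a, Tpx2 and Smc4 had no entry. A CHR element was held by 30 of 37 mitosis genes, or 81.1%, by 21.1% of other genes kept and by 30.6% of all 27025 genes with a window. A CCAAT box was held by 27 genes, or 73.0%, by 42.8% of other genes kept and by 41.1% of all genes. Both motifs were held by 25 genes, or 67.6%, by 8.52% of other genes kept and by 12.2% of all genes.

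The motifs had a preferred place. A CHR element within 50 bases of the start site was held by 25 of 37 mitosis genes and by 5.43% of other genes kept. In the 50 bases before the start, 17 mitosis genes held a CCAAT box, and 15 held a CHR element in the 50 bases after it. In the promoters printed above, the CHR element nearest to the start began 42 bases before it in Ccnb1, 15 bases before it in Cdk1, 4 bases after it in Ccnb2 and 7 bases after it in Ttk, and Ccnb2 and Cdk1 held another 167 and 71 bases before the start. A match to these letters describes the sequence and does not show that a factor binds there.

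**Figure D5:**
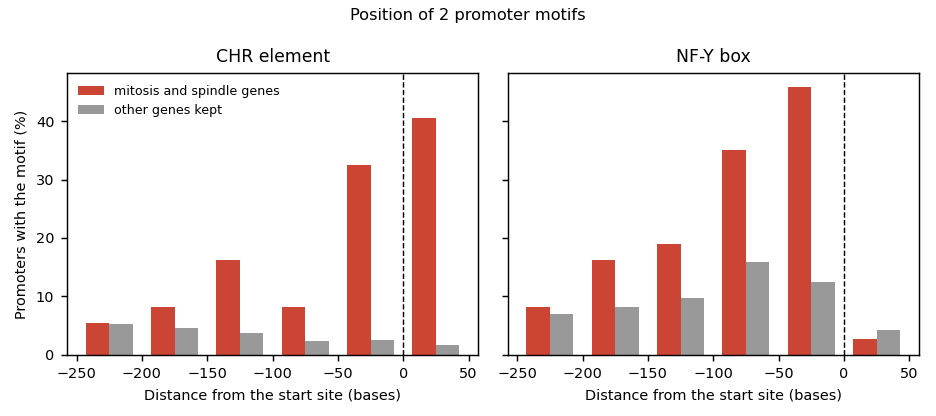
Share of promoters (%) that hold a CHR element (left) or the NF-Y box, the CCAAT box (right), in bins of 50 bases around the start site (dashed line), for 37 mitosis and spindle genes in red and 7607 other genes kept in grey. The red CHR bars reach 40.5% just after the start, beside 1.67% of other genes, and the red NF-Y bars reach 45.9% just before it, beside 12.4%.

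The ratios were compared between members with and without the motifs. The 25 genes with both motifs had a median log2 ratio of 1.29, and 20 of them were more than 2-fold higher. The 5 genes with neither, Mad2l1, Nusap1, Melk, Nuf2 and Pttg1, had a median of 0.87 and ranged from 0.61 for Pttg1 to 1.74 for Mad2l1. Kif23 held both motifs, although its ratio was the lowest of the genes with a window. Among the other genes kept, 13.6% of the 648 with both motifs in one window were higher in Kai1-/- cells by more than 2-fold. That share was 7.71% with a CHR element alone, 6.54% with a CCAAT box alone and 6.69% of the 3498 genes with neither. Among 216 genes with a CHR element within 50 bases of a start and a CCAAT box in any of their windows, it was 21.8%. These classes include genes of the other cell cycle lists, among them 32 of the 648 and 27 of the 216. With listed genes left out, the share was 10.7% of 616 genes with both motifs and 15.9% of 189 with the CHR element near a start. The lists do not hold every cell cycle gene, and Ccnf, for cyclin F, and Skp2, among others, stayed in these classes. The share was then 6.47% of 3463 genes with neither motif.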

How the data were processed

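RNA of 1 WT and 1 Kai1-/- PC library was sequenced. Per the labels and methods, the authors aligned reads to mm9 (NCBI37) with TopHat2 2.0.9 and Bowtie and deposited one RPKM value per RefSeq gene and library. Depth and strand setting were not given in the sources used here. Rows without a symbol (38 of 20462) were left out and 153 repeated symbols averaged. No p-value was computed, since each genotype had 1 library. The 45 genes and the lists were chosen with earlier results of these data known. Of each other list, the 3 highest and the 1 lowest genes were named. Reads per gene were estimated from whole-read steps in low RPKM values, with 200 bases taken off the longest GENCODE M1 transcript. Of the low values, 80.6% (WT) and 79.7% (Kai1-/-) lay within 0.15 of a whole read. The steps, counts and intervals were tested on data simulated from the same counting model with known transcript lengths. That simulation could not test the use of the longest transcript. Promoters came from RefSeq (GRCm38.p6), whose coordinates differ from those of NCBI37. Alternatives were other pseudocounts, filters and scalings and, added after the data were seen, leaving out members with overlapping exons. Python 3.11.15, numpy 2.4.6, pandas 2.3.3 and matplotlib 3.10.9 were used.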

Additional observations from a re-analysis of the deposited data

How the results depend on the processing

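The direction of the set held under each alternative run, with the exception of Kif23 (-0.14) and Smc4 (-0.21) when values were scaled to Gapdh. That scaling left 11 genes more than 2-fold higher, a median log2 ratio of 0.76 and a log2 ratio of -2.73 for Cd82. The median was 1.11 with 1 RPKM added and 1.06 with the libraries scaled to the RPKM sum without ribosomal protein genes, and with 1 RPKM added the log2 ratio of Cd82 was -1.93. Across the other alternatives 22 to 31 genes were more than 2-fold higher, the lowest of these counts coming from 35 genes without exon overlap. With the median of all genes kept set to 0, 27 genes passed 2-fold. The shares of all genes kept that were more than 2-fold higher and lower, 7.98% and 7.81% as deposited, were 2.76% and 18.4% when scaled to Gapdh, 5.90% and 9.70% with equal upper quartiles and 5.09% and 10.8% without ribosomal protein genes. Of 394 recomputed ratios of single members, 117 moved by more than their counting interval and 42 crossed the 2-fold line. The 394 include ratios under other filters and under summed repeated symbols, which could not move a member. Of those called more than 2-fold, 0 changed sign, but none could, since Gapdh, which set the largest rescaling, had a log2 ratio of only 0.50. No paired analysis was possible because there was a single library of either genotype. Estimated reads limit Ttk most, with about 59 in the WT library.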

Other observations

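Beyond the cell cycle lists, 189 other genes kept held a CHR element within 50 bases of the start site and a CCAAT box, and 30 of them, or 15.9%, were higher in Kai1-/- cells by more than 2-fold, while 14 were lower by as much. Of 3463 unlisted genes with neither motif, 6.47% were more than 2-fold higher. The genes named here were chosen after their values were seen. Foxa2, for a forkhead factor, was at 1.84 RPKM in WT and 10.9 in Kai1-/- (log2 ratio 2.51). Of genes for chromatin proteins, Hmgb3 was at 4.27 RPKM in WT and 21.9 in Kai1-/- (2.33), Hmgb2 at 16.5 and 63.0 (1.93) and Hmgn2 at 38.4 and 125 (1.70). Asf1b, a histone chaperone, was at 5.34 and 24.7 RPKM (2.19). Traip, for a ubiquitin ligase, was at 2.28 and 7.85 RPKM (1.74). Ccnf, for cyclin F, was at 7.41 and 23.1 RPKM (1.63), and Tmpo, for a lamina protein of the nuclear envelope, was at 10.7 and 28.3 (1.40). Further genes were Skp2, for an F-box protein of the cell cycle, at 2.03 and 4.71 RPKM (1.17), and Kpna2, for an importin, at 35.9 and 74.8 (1.06). Also among the 30 were Lsm5, for a subunit of an RNA binding ring, at 1.02 and 10.8 RPKM (3.28) and Hgf, for hepatocyte growth factor, at 0.806 and 2.61 (1.58). The lowest ratios of the 189 were those of Dhrs3, for a retinol dehydrogenase family enzyme, at 40.9 and 1.21 RPKM (-4.97), and Gpx3, for a glutathione peroxidase, at 216 and 7.54 (-4.83).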
